A study of Mus musculus with 9 samples.

Results

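The 10 genes described here encode parts of the T cell receptor complex and the molecules that act closest to it: the receptor chain gene Trac, the CD3 chain genes Cd3d, Cd3e, Cd3g and Cd247, the coreceptor gene Cd4, the phosphatase gene Ptprc, the kinase genes Lck and Zap70, and the adaptor gene Lat. They were taken by name from a table of counts for 45808 genes. No threshold was set on their values, but earlier results of these data were known when they were chosen. RNA came from ICOS+ CD4 T cells that infiltrated MC38 tumours, a mouse colon carcinoma line grown in C57BL/6J mice, and were sorted on day 12 after tumour cell injection. There were 3 groups of 3 libraries: control mice, mice given anti-CTLA-4 and mice given anti-PD-1, antibodies against inhibitory receptors of T cells. All mice shared the strain, the tumour line and the day, and each library was made from 1 mouse by a kit that amplifies RNA from very few cells, because the sorted cells gave little RNA. Which antibody clones and doses were used, how controls were treated and how many cells were sorted is not given in the sources used here.

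T cell receptor alpha and beta chains bind peptide on MHC molecules but carry no signalling tail, so they rely on the CD3 delta, epsilon, gamma and zeta chains. In a helper T cell, CD4 brings the kinase LCK to the engaged receptor. LCK phosphorylates the CD3 and zeta tails, ZAP70 binds there and phosphorylates LAT, and LAT gathers the enzymes that start calcium, Ras and NF-kappaB signalling. The phosphatase CD45, encoded by Ptprc, sets how active LCK is. The cells were sorted as CD4 T cells, so the presence of these transcripts is no finding, and the question was how their levels differed between mice and between treatments.

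Cd3g, Cd3d and Cd3e lie side by side on chromosome 9, and their promoters are shown because the neighbours took opposite values in 1 library (below). Cd3g and Cd3d are transcribed away from each other, with starts 1355 bases apart, and the start of Cd3e lies 27841 bases from that of Cd3d. The sequences are from RefSeq on GRCm38.p6, written 5′ to 3′ on the strand of the gene and ending just before the annotated start. They cover chr9:44981536-44981785 on the plus strand for Cd3d, chr9:44980432-44980681 on the minus strand for Cd3g, and chr9:45009628-45009861 on the minus strand for Cd3e, where 16 further bases overlap an exon and were left out. Capitals mark matches, on either strand, to the E-box letters CANNTG and to AGGAAG, a core bound by Ets factors.
Cd3d: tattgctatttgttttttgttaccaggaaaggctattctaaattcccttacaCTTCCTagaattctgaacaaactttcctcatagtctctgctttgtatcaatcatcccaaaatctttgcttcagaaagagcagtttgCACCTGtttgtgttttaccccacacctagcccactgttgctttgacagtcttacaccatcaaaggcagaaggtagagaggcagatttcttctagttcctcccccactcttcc
Cd3g: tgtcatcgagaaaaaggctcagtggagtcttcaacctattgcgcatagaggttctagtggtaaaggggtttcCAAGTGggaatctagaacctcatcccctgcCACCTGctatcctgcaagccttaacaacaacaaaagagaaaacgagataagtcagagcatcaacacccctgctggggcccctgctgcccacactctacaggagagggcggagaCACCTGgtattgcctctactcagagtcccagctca
Cd3e: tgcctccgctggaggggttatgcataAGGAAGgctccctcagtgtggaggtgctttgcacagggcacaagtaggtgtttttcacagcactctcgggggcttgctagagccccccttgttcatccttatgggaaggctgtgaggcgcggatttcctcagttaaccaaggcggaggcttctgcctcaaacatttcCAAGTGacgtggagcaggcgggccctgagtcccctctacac

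The Cd3d, Cd3g and Cd3e windows held 1, 3 and 1 E-box matches. Of 32851 promoter windows of 250 bases, 66.2% held at least 1, so the match is common. AGGAAG matched 1 time in Cd3d, 1 time in Cd3e and not in Cd3g, against 29.5% of windows. Neither TGTGGT, a core bound by Runx factors and held by 14.0% of windows, nor TATAAA, held by 12.4%, was found in the 3 windows. The matches are a description of letters and no evidence of binding.

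Gene counts summed to 25530333 to 41508589 per library. Values are counts scaled to a library total of 1000000 gene counts (CPM), and 3 counts equal 0.0723 to 0.118 CPM. Anti-CTLA-4 replicate 2 stood apart: 2662 genes reached 5 CPM in it, 4209 reached it in the second anti-PD-1 library, and 5124 to 6309 did elsewhere. Of 1910 genes whose mean reached 100 CPM, 27.3% lay below 1 CPM in that library, 10.4% in the second anti-PD-1 library and 2.04% to 4.24% elsewhere. The summed CPM of 16 macrophage and monocyte markers ranged from 334 to 842 in controls, from 594 to 7647 under anti-CTLA-4 and from 276 to 923 under anti-PD-1, and the highest sum was that of anti-CTLA-4 replicate 2. There, 10 of the 16 markers reached 10 CPM, a number that anti-PD-1 replicate 3 shared. Control replicate 1 and anti-CTLA-4 replicate 1 each had 11. Of the list, C1qa, C1qb, Apoe and Fcer1g were highest in anti-CTLA-4 replicate 1, and Adgre1, Fcgr3 and Mrc1 in anti-PD-1 replicate 2. In anti-CTLA-4 replicate 2 the list was led by Tyrobp at 1874 CPM, and Cd68 stood at 306 CPM against at most 17.0 CPM elsewhere. The same library had the highest sums of fibroblast markers (1731 CPM, with Col1a2 at 615, Col3a1 at 603 and Col1a1 at 369 CPM) and neutrophil markers (267 CPM, all from Mmp9). Cd8a, which marks CD8 T cells, was at 0 in every library, as were Cd79a of B cells, Ncr1 and Klrb1c of NK cells, Cdh5 of endothelium and Krt8 of epithelium. Other markers of the same types were present in some libraries: at their highest, Cd8b1 stood at 125 CPM, Cd79b at 31.5, Ms4a1 at 32.3 and Ebf1 at 35.7 CPM (B cells), Klrd1 at 28.4 and Klrk1 at 37.9 CPM (NK cells), Pecam1 at 184 CPM and Epcam at 57.7 CPM. The part that other cells, depth or RNA loss took in the values below was not tested, and fewer cells of a type cannot be told apart from less RNA per cell in such libraries.

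Trac, the constant region of the receptor alpha chain (ENSMUSG00000076928, GRCm38 chromosome 14, 54220521 to 54224206), had the smallest ratio of highest to lowest library among the 10 genes. Its level was 612, 264 and 388 CPM in control replicates 1, 2 and 3, 378, 632 and 282 CPM under anti-CTLA-4, and 405, 458 and 503 CPM under anti-PD-1. The groups overlapped throughout, and the highest library exceeded the lowest by 2.40-fold. Anti-CTLA-4 replicate 2, which lacked so many other transcripts, held the highest value. Group means were 421 ± 177, 430.6 ± 181 and 455 ± 49.0 CPM (SD, n = 3).

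Cd3d, which encodes the CD3 delta chain (ENSMUSG00000032094, chromosome 9, 44981786 to 44987339), varied more. It stood at 235, 55.3 and 116 CPM in the controls, 74.8, 696 and 162 CPM under anti-CTLA-4, and 289, 155 and 64.7 CPM under anti-PD-1. The single high value of 696 CPM, in anti-CTLA-4 replicate 2, set the mean of that group at 311 ± 337 CPM against 135 ± 91.3 CPM in controls and 169 ± 113 CPM under anti-PD-1. The other anti-CTLA-4 libraries lay within the control range.

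Cd3g, which encodes the gamma chain (ENSMUSG00000002033, chromosome 9, 44969572 to 44980431), was highest in the same library. Controls held 284, 115 and 256 CPM, anti-CTLA-4 libraries 182, 649 and 348 CPM, and anti-PD-1 libraries 294, 579 and 561 CPM. All 3 anti-PD-1 libraries lay above all 3 controls, but the lowest of them exceeded the highest control by only 1.03-fold. Means were 218 ± 90.7, 393 ± 237 and 478 ± 160 CPM in the order control, anti-CTLA-4, anti-PD-1.

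Cd3e, which encodes the epsilon chain that pairs with both delta and gamma (ENSMUSG00000032093, chromosome 9, 44998740 to 45009627), took the opposite place. It was read at 422, 347 and 838 CPM in controls, 640, 0.590 and 664 CPM under anti-CTLA-4, and 707, 447.2 and 472 CPM under anti-PD-1. Anti-CTLA-4 replicate 2 thus held 21 counts of Cd3e beside 24764 of Cd3d and 23085 of Cd3g, whereas the other 8 libraries held at least 10797 counts of Cd3e. Means were 536 ± 264, 434.99 ± 376 and 542 ± 143 CPM, and outside that library the groups overlapped. An antisense gene, Gm48719, shares 135 exon bases with Cd3e and had no counts.

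Cd247, which encodes the zeta chain with the most signalling motifs of the complex (ENSMUSG00000005763, chromosome 1, 165788681 to 165877277), gave the lowest values under anti-CTLA-4. Controls held 99.96, 173 and 223 CPM, anti-CTLA-4 libraries 85.5, 36.7 and 13.3 CPM, and anti-PD-1 libraries 148, 97.2 and 219 CPM. Every anti-CTLA-4 library lay below every library of the other groups, and the lowest was anti-CTLA-4 replicate 3. Means were 165 ± 61.9, 45.2 ± 36.8 and 154 ± 61.0 CPM. Cd247 shares 3213 exon bases with Gm16565 on its own strand and Pou2f1 on the other, so its counts are uncertain.

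**Figure D1:**
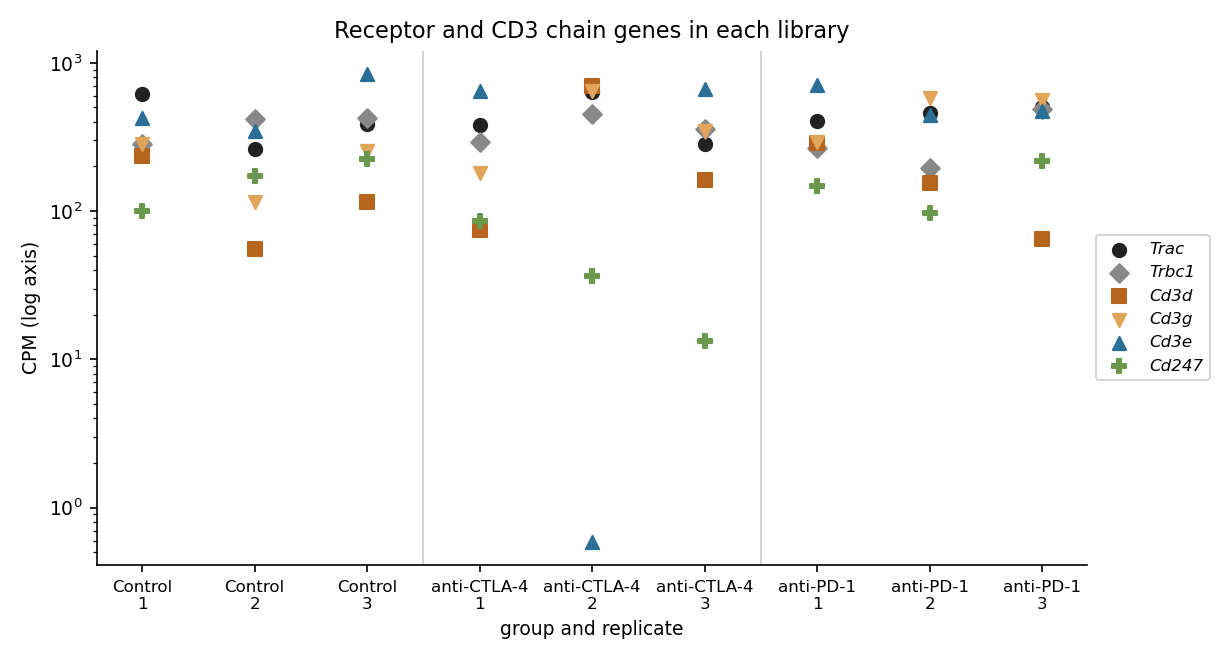
CPM on a log axis (vertical) of 6 receptor and CD3 chain genes in each of the 9 libraries (horizontal), 1 point per gene and library. In anti-CTLA-4 replicate 2, Cd3d, Cd3g and Trac lie between 632 and 696 CPM while Cd3e lies at 0.590 CPM.

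Cd4, the coreceptor for MHC class II (ENSMUSG00000023274, chromosome 6, 124864692 to 124888221), was highest under anti-PD-1. Its level was 324, 599 and 594 CPM in controls, 440, 24.5 and 308 CPM under anti-CTLA-4, and 808, 616 and 719 CPM under anti-PD-1. The anti-PD-1 libraries lay above all 6 others, by 1.03-fold at the nearest control and by 1.40-fold at the nearest anti-CTLA-4 library. Anti-CTLA-4 replicate 2 was far below the rest, and the other libraries of its group lay within or just below the control range. Means were 506 ± 158, 258 ± 212 and 715 ± 96.2 CPM.

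Ptprc, which encodes CD45 (ENSMUSG00000026395, chromosome 1, 138062861 to 138175708), had the highest mean CPM of the 10 genes in each group, and the highest CPM in 8 of the 9 libraries. Controls held 2444, 3733 and 2007 CPM, anti-CTLA-4 libraries 2573, 501 and 2413 CPM, and anti-PD-1 libraries 2756, 3240 and 2432 CPM. Anti-CTLA-4 replicate 2 lay far below the others, which overlapped between groups. Means were 2728 ± 897, 1829 ± 1153 and 2809 ± 406 CPM. Since CD45 is carried by all leukocytes, its level does not separate T cells from other blood cells.

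Lck, the kinase bound to CD4 (ENSMUSG00000000409, chromosome 4, 129548344 to 129573641), was almost lost in 2 libraries of different groups. It was read at 3.71, 374 and 444.1 CPM in controls, 204, 165 and 422 CPM under anti-CTLA-4, and 241, 4.86 and 152 CPM under anti-PD-1. Control replicate 1 was the lowest, and that library had the most gene counts and held Cd3d and Zap70 at 235 and 251 CPM. Anti-CTLA-4 replicate 2 held Lck at a level within the range of the other groups. Means were 274 ± 237, 264 ± 139 and 133 ± 119 CPM.

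Zap70, the kinase that docks on phosphorylated CD3 chains (ENSMUSG00000026117, chromosome 1, 36761798 to 36782818), was near 0 in the pair of libraries with the fewest genes. Controls held 251, 182 and 147 CPM, anti-CTLA-4 libraries 249, 0.141 and 99.6 CPM, and anti-PD-1 libraries 276, 0.121 and 443 CPM. The low values rest on 5 and 4 counts, against at least 3255 counts in the other 7 libraries. The library with the highest value, anti-PD-1 replicate 3, shares its group with the lowest. Means were 193 ± 53.2, 116 ± 125 and 239 ± 224 CPM.

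Lat, the membrane adaptor phosphorylated by ZAP70 (ENSMUSG00000030742, chromosome 7, 126363824 to 126369570), was the least and most unevenly detected. It stood at 21.5, 2.99 and 162 CPM in controls, 86.6, 0.0843 and 0.0306 CPM under anti-CTLA-4, and 0.0783, 0.0604 and 31.7 CPM under anti-PD-1. In 4 libraries it had 1 to 3 counts, at or below the floor of 3 counts, and each treated group held such libraries beside 1 with at least 1084 counts. Means were 62.0 ± 86.8, 28.9 ± 49.97 and 10.6 ± 18.2 CPM, and no difference between groups can be read at this spread.

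**Figure D2:**
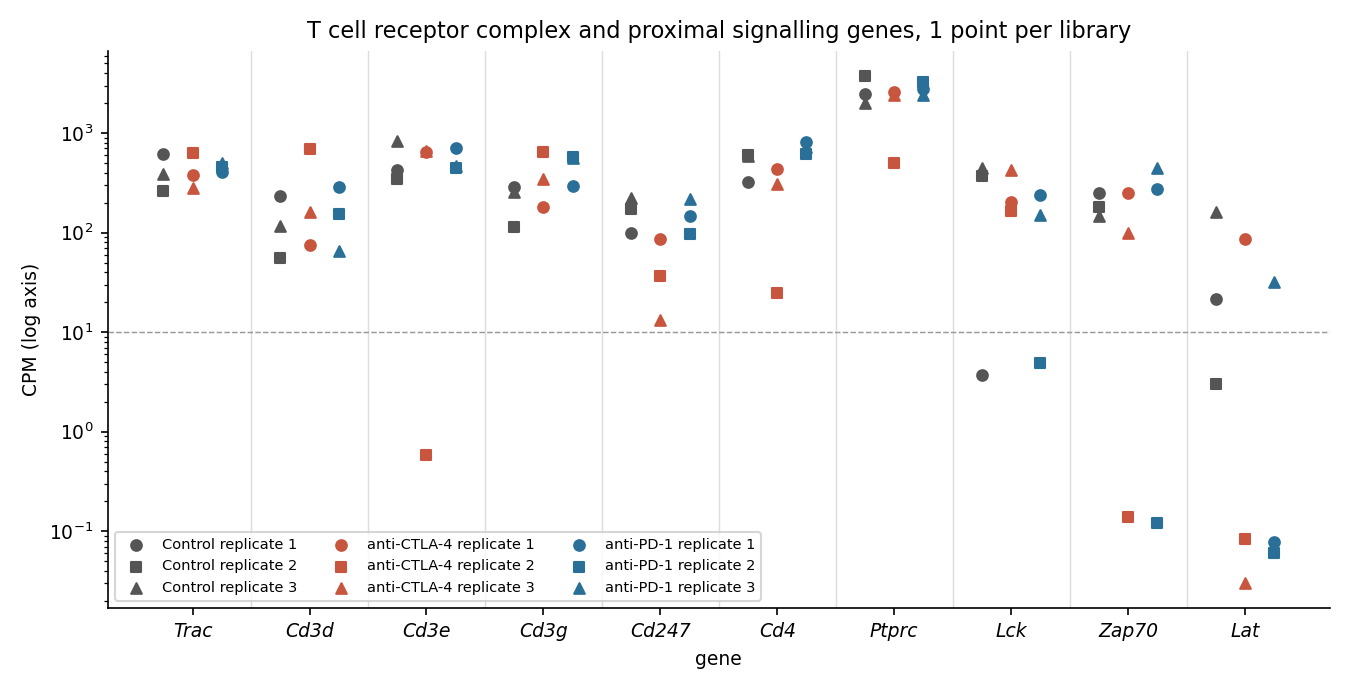
CPM on a log axis (vertical) of the 10 genes (horizontal), 1 point per library, coloured by group with a marker for each replicate number; the dashed line is at 10 CPM. Trac, Cd3d, Cd3g, Cd247, Cd4 and Ptprc lie above the line in all 9 libraries, while Cd3e, Lck, Zap70 and Lat each have at least 1 library below it.

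Such losses in single libraries occurred over the whole table. Where the mean reached 100 CPM, 2 of 9 members (Cd3e and Zap70) lay below 1 CPM in some library, as did 786 of 1910 genes in all (41.2%). At least 10 CPM in every library was reached by 6 of the 9 and by 47.6% of the 1910. Anti-CTLA-4 replicate 2 was the highest library for 3 of the 10 genes (Trac, Cd3d and Cd3g) and the lowest for 3 (Cd3e, Cd4 and Ptprc), and over the 1910 genes it was highest for 24.7% and lowest for 44.2%. The biological coefficient of variation that edgeR fitted ran from 1.01 for Ptprc to 2.08 for Lat, with 1.13 for Trac and 1.45 for Cd247, against a median of 1.90 over the tested genes.

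Levels of different genes were compared per kilobase of annotated exon sequence, which understates genes with long, rarely used exons such as Ptprc. The median over the 9 libraries was 433 CPM per kb for Trac, 147 for Cd4, 133 for Ptprc, 116 for Cd3e, 89.8 for Cd3g and 85.3 for Cd3d. It was 69.7 CPM per kb for Lck, 60.8 for Zap70, 18.8 for Cd247 and 1.08 for Lat. The value for Cd247 is uncertain, because the gene shares exon bases with Gm16565 and Pou2f1. Trac was the highest of the 10 in all 9 libraries, and its range did not overlap that of Cd4. All later neighbours in the order overlapped in range. Library by library, Zap70 exceeded Cd247 in 7 of 9 and Cd247 exceeded Lat in 7 of 9. The neighbours from Cd4 to Zap70 kept the order in 3 to 6 libraries. Differences between neighbours were not tested. Cd3e was the highest of the 3 CD3 genes of chromosome 9 in 5 libraries, Cd3d in 2 and Cd3g in 2.

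Treatment was compared with edgeR's quasi-likelihood test over all 9 libraries, with TMM scaling factors and p-values adjusted by the Benjamini-Hochberg method over 7858 tested genes. All 10 members were tested, and those low in some library passed the count filter through the others. The TMM factor of anti-CTLA-4 replicate 2 was 0.403, so the fit raises values of that library, and fitted log2 changes differ from the ratios of CPM means where it enters. A comparison of 3 libraries with 3 by an exact permutation test cannot give a p-value below 0.1 and was not used.

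Between anti-CTLA-4 and control, 0 of the 10 genes passed an adjusted p of 0.05 in edgeR, against 0.369% of all tested genes. At an unadjusted p under 0.05 edgeR gave 1 of 10, Cd3d, beside 11.3% of all tested genes. DESeq2 called 0 with 0 unadjusted; it gave no p for Trac, Cd3d and Cd3g. The fitted log2 change was 2.53 for Cd3d (SE 1.25, approximate 95% interval 0.08 to 4.98, edgeR adjusted p = 0.4352) and 1.96 for Cd3g (SE 1.01, interval -0.03 to 3.95, edgeR adjusted p = 0.4352). Both rested on anti-CTLA-4 replicate 2, which had the highest macrophage and fibroblast marker sums and, through Mmp9 alone, the highest neutrophil marker sum. Without that library the changes were 0.00081 for Cd3d and 0.47 for Cd3g. For Trac the fitted change was 1.06 (SE 0.94), and without that library it was -0.18.

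For Cd247 the fitted log2 change was -1.17 (SE 1.91, interval -4.91 to 2.57, edgeR adjusted p = 1.0), although the CPM means differed by 3.66-fold. It was the 1 gene of the 10 whose anti-CTLA-4 libraries all lay below the controls, where 10.4% of all tested genes did so and 1.57% had them all above. With CPM divided by the TMM factors the groups overlapped. Fitted log2 changes of the other genes were -0.73 for Cd4 (SE 0.99), -0.20 for Ptprc (SE 0.49), -0.14 for Cd3e (SE 0.98), 0.58 for Lck (SE 1.39), -0.60 for Zap70 (SE 1.64) and -0.98 for Lat (SE 3.08). With RLE in place of TMM factors the sign turned for Cd247 (1.17), Ptprc (1.27), Cd4 (0.067) and Cd3e (0.023). The interval of Ptprc, -1.15 to 0.75, was the narrowest, and that of Lat, -7.02 to 5.06, the widest. The median over the 10 genes was -0.17, beside 0.01 over all tested genes.

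Between anti-PD-1 and control, 0 of the 10 genes passed in edgeR, where 0.0764% of all tested genes did. None reached an unadjusted p under 0.05 in edgeR (0 of 10, beside 6.01% of all tested genes) or DESeq2 (0 of the 7 with a p). Every member had an edgeR adjusted p of 0.9998. The fitted log2 change was 1.40 for Cd3g (SE 0.998, interval -0.56 to 3.35) and 0.73 for Cd4 (SE 0.99, interval -1.21 to 2.67). These 2 of 10 genes had all anti-PD-1 libraries above all controls, as had 3.45% of all tested genes, while 7.33% had them all below. Both remained separate with TMM factors. For Trac the change was 0.35, for Cd3d 0.54, for Cd3e 0.23 and for Ptprc 0.32, each smaller than its SE. Lck gave -0.95 (SE 1.39), with 1 library near loss in each group, and Cd247 gave 0.09 (SE 1.88). Zap70 gave 0.36 and Lat -2.49, also within their SE. The members' median was 0.33, beside 0.07 over all tested genes.

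The direct comparison of anti-CTLA-4 with anti-PD-1 called 0 of the 10 genes in edgeR, against 0.827% of all tested genes, with 0 at an unadjusted p under 0.05 in edgeR, beside 14.1% of all tested genes, and 0 of 7 in DESeq2. The fitted log2 change of Cd4 was -1.46 (SE 1.005, interval -3.43 to 0.51, edgeR adjusted p = 0.553), and without anti-CTLA-4 replicate 2 it was -0.97 (edgeR adjusted p = 0.525). Cd247 gave -1.26 (SE 1.91, edgeR adjusted p = 0.955), and -1.68 without that library, but 0.91 with RLE factors. Cd4 and Cd247 had all anti-CTLA-4 libraries below all anti-PD-1 libraries, 2 of 10 genes where 6.95% of all tested genes did so and 2.81% lay higher. Both kept this with TMM factors. Cd3d gave the lowest adjusted p, with a change of 1.99 (SE 1.23, edgeR adjusted p = 0.466), and -0.53 without anti-CTLA-4 replicate 2. The other fitted changes were 0.71 for Trac, 0.56 for Cd3g, -0.37 for Cd3e, -0.52 for Ptprc, 1.53 for Lck, -0.96 for Zap70 and 1.51 for Lat. The members' median was 0.10, beside -0.05 over all tested genes. The 3 comparisons share libraries, so their results for a gene are not independent.

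In 1 test over the 3 groups, 0 of the 10 genes passed in edgeR, against 1.53% of all tested genes, with 0 at an unadjusted p under 0.05, beside 8.97% of all. The lowest edgeR adjusted p was 0.561, for Cd3d. These p-values do not show that the levels were equal: the intervals of all 10 members reach beyond a log2 change of 1 in at least 1 direction in each of the 3 comparisons.

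**Figure D3:**
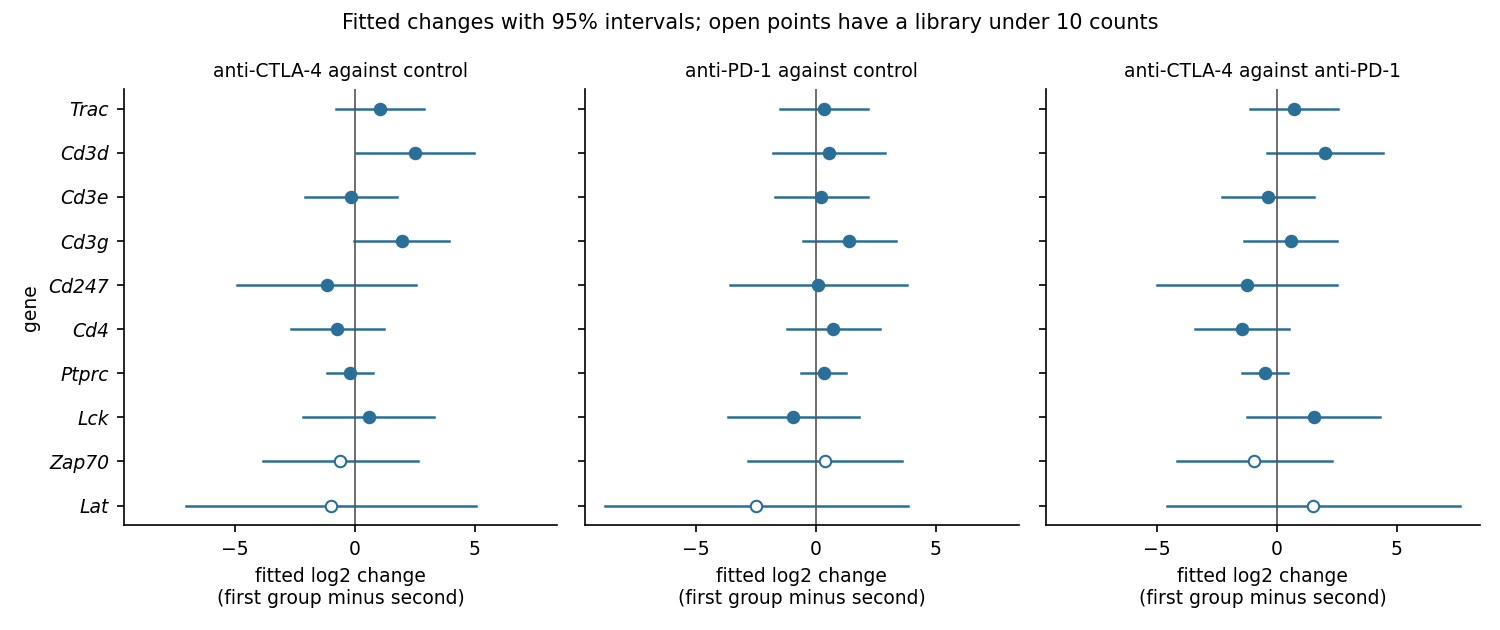
Fitted log2 change (horizontal, first group minus second) of the 10 genes (vertical) in the 3 comparisons, with approximate 95% intervals as lines; open points are genes with a library under 10 counts in that comparison. All intervals but that of Cd3d for anti-CTLA-4 against control (0.08 to 4.98) include 0.

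With both libraries that had the fewest genes left out together, edgeR again called 0 of the 10 genes in every comparison. Groups that did not overlap with all libraries in cannot overlap with fewer. Zap70 then also separated, at 276 and 443 CPM under anti-PD-1 against 147 to 251 CPM in controls and 99.6 to 249 CPM under anti-CTLA-4, and Trac at 282 and 378 CPM under anti-CTLA-4 against 405 and 503 CPM under anti-PD-1. With 2 libraries in each treated group such separation is common: 9.28% of all tested genes lay higher under anti-PD-1 than in controls, and 19.5% lower under anti-CTLA-4 than under anti-PD-1.

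The likeness of 2 genes was measured as the root mean squared difference of their log2(CPM + 1) values over the 9 libraries, each centred on its own mean. Among members, Trac and Cd3g had the smallest difference (0.59), although it exceeded the deviation of Trac from its own mean (0.41), followed by Cd4 and Ptprc (0.76), Trac and Cd3d (0.92) and Cd3d and Cd3g (0.94). Cd3d and Cd3e, which differ in anti-CTLA-4 replicate 2, were 3.51 apart, and Cd3d and Zap70 were the most distant pair (3.92). Of 3367 genes searched, the closest to Cd4 was Parp14 (0.24), then Sh3kbp1 (0.29) and Selplg (0.34), all of them lowest in anti-CTLA-4 replicate 2. The closest to Ptprc was Cd28 (0.28), the costimulatory receptor gene, then Srgn (0.32) and Gabarap (0.34), lowest in the same library.

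Cd3g was nearest to the chemokine gene Ccl5 (0.26), then to Ap3b1 (0.40) and Rpl4 (0.48). Trac was nearest to Rbm25 (0.27), Ubb (0.30) and Rpl5 (0.36), each with a different highest library. Cd3d was nearest to Npepps (0.56), Prelid1 (0.57) and Dynlrb1 (0.57), all highest in anti-CTLA-4 replicate 2. Cd3e was nearest to Taok1 (0.43), Dock2 (0.43) and Rapgef6 (0.48), all lowest in anti-CTLA-4 replicate 2. Cd247 was nearest to Maf (0.55), Med13 (0.64) and Epas1 (0.69). Zap70 was 0.60 from Becn1, 0.71 from Rb1cc1 and 0.71 from Inpp5d, Lck 0.86 from Dcaf12, 0.94 from Btg2 and 1.10 from Ifi27, and Lat 1.25 from Asns, 1.38 from Tcof1 and 1.47 from Got1. A small difference can come from little movement in both genes, so each is to be read against the member's own root mean squared deviation from its mean. That was 0.41 for Trac, 0.77 for Cd3g, 0.79 for Ptprc, 1.09 for Cd3d, 1.22 for Cd247 and 1.44 for Cd4. It was 2.41 for Lck, 2.68 for Cd3e, 2.83 for Lat and 3.20 for Zap70. These values describe 9 libraries whose depth and dropout the genes share.

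The rest of the pathway was read from 7 lists with 66 genes in the table, of which 59 were tested. In edgeR 0 of the 59 passed in each comparison and over the 3 groups, with 2 (3.39%) at an unadjusted p under 0.05 in each. Of all tested genes 11.3% reached that for anti-CTLA-4 against control, 6.01% for anti-PD-1 against control, 14.1% between the antibodies and 8.97% over the 3 groups. Their median fitted log2 change was 0.03 for anti-CTLA-4 against control, 0.10 for anti-PD-1 against control and 0.00 between the antibodies. In anti-CTLA-4 replicate 2, 34 of the 59 (57.6%) lay below 1 CPM, beside 64.4% of all tested genes, whereas 5 to 18 did so in the other libraries.

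Among the receptor constant genes and partners, 4 of 5 were tested and 0 passed. Trbc1, a beta chain constant region, stood at 373 ± 78.9 CPM in controls, 368 ± 80.9 CPM under anti-CTLA-4 and 317 ± 152 CPM under anti-PD-1, and was at 454 CPM in anti-CTLA-4 replicate 2. Trbc2, its near-identical neighbour, stood at 22.3 ± 23.2, 89.6 ± 78.4 and 85.9 ± 46.3 CPM, and reads that both genes share cannot be assigned, so both are uncertain. Like Trac, Trbc1 was thus kept in the library that had lost Cd3e. Trbc2 was not: it had 16 counts there (0.450 CPM), its lowest value.

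Of the coreceptor and adhesion genes, 5 of 7 were tested and 0 passed. Cd5, an inhibitory coreceptor, was at 407 ± 277 CPM in controls, 545 ± 472 CPM under anti-CTLA-4 and 546 ± 210 CPM under anti-PD-1, and at 0.731 CPM in anti-CTLA-4 replicate 2. Cd2, which binds CD48 on other cells, was at 724, 544 and 761 CPM in controls and at 437, 23.7 and 316 CPM under anti-CTLA-4, without overlap. With anti-PD-1 it was at 394, 204 and 946 CPM, across the range of the controls.

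Among 10 Src family kinase genes and regulators, all tested, 0 passed. Ptpn22, a phosphatase that acts on LCK and ZAP70, was at 377, 628 and 576 CPM in controls and 886, 1700 and 717 CPM under anti-PD-1, without overlap. With anti-CTLA-4 it ranged from 241 to 937 CPM. Sh2d2a, an adaptor that binds LCK, was at 622 ± 218, 421 ± 380 and 547 ± 288 CPM in the order control, anti-CTLA-4, anti-PD-1.

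Of the Tec kinase and effector genes, 9 of 10 were tested and 0 passed. Rasgrp1, which activates Ras, was at 418 ± 267, 217 ± 204 and 363 ± 87.9 CPM in the same order of groups. It was lowest in anti-CTLA-4 replicate 2, at 6.35 CPM.

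Adaptor genes were tested in 10 of 12 cases and 0 passed. Lcp2, which encodes SLP-76, the partner of LAT, was at 434 ± 163 CPM in controls, 492 ± 235 CPM under anti-CTLA-4 and 406 ± 275 CPM under anti-PD-1. Fyb, an adaptor that links the receptor to integrins, was at 782 ± 337, 1094 ± 757 and 927 ± 37.4 CPM. Both remained above 100 CPM in all libraries, unlike Lat.

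Negative regulators were tested in 10 of 11 cases and 0 passed. Sla, which encodes an adaptor that lowers receptor levels, was at 1146 ± 297, 681 ± 590 and 1242 ± 625 CPM, and at 1.49 CPM in anti-CTLA-4 replicate 2. Dgka, a kinase that removes diacylglycerol, was at 367 ± 40.9, 526 ± 221 and 430 ± 116 CPM. Of the 11 distal signalling genes, all tested, 0 passed. Malt1, a protease of the NF-kappaB branch, was at 225 ± 166, 215 ± 186 and 202 ± 56.7 CPM. Nfatc3, a calcium-dependent transcription factor, was at 180 ± 53.3, 89.9 ± 148 and 189 ± 24.4 CPM. Replicate 2 differed from the rest of the anti-CTLA-4 group in both genes. In replicates 1, 2 and 3 Malt1 stood at 322, 0.225 and 322 CPM, and Nfatc3 at 3.97, 261 and 4.65 CPM.

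Groups that did not overlap were found for 5 of the 59 genes between anti-CTLA-4 and control, where 11.9% of all tested genes did not overlap. They were Nck1, higher under anti-CTLA-4, and Cd2, Fyn, Nck2 and Stim1, lower, named after their values were seen. Nck1 and Nck2 encode closely related adaptors that bind CD3 epsilon. Nck1 stood at 38.4, 138 and 160 CPM under anti-CTLA-4, at most 0.868 CPM in controls and at most 11.1 CPM under anti-PD-1. Nck2 stood at 65.6, 29.8 and 5.09 CPM in controls and at most 3.51 CPM in the 6 treated libraries.

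Between anti-PD-1 and control 6 of the 59 did not overlap, where 10.8% of all tested genes did not. Cd48 and Ptpn22 were higher, and Trdc, Grb2, Nck2 and Ubash3a lower. Trdc was near the floor, at 0.419 to 1.30 CPM in controls and at most 0.292 CPM under anti-PD-1. The gap of Cd48 was small, with 15.5 CPM in the highest control and 17.5 CPM in the lowest anti-PD-1 library. Grb2, an adaptor that binds LAT, stood at 145, 114 and 72.0 CPM in controls and 0.235, 36.2 and 19.5 CPM under anti-PD-1. Between the antibodies 4 did not overlap, where 9.76% of all tested genes did not: Trat1 and Nck1 were higher under anti-CTLA-4, and Vav1 and Ubash3b lower. Trat1 had at most 0.0843 CPM in 4 of those 6 libraries, at or near the floor.

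**Figure D4:**
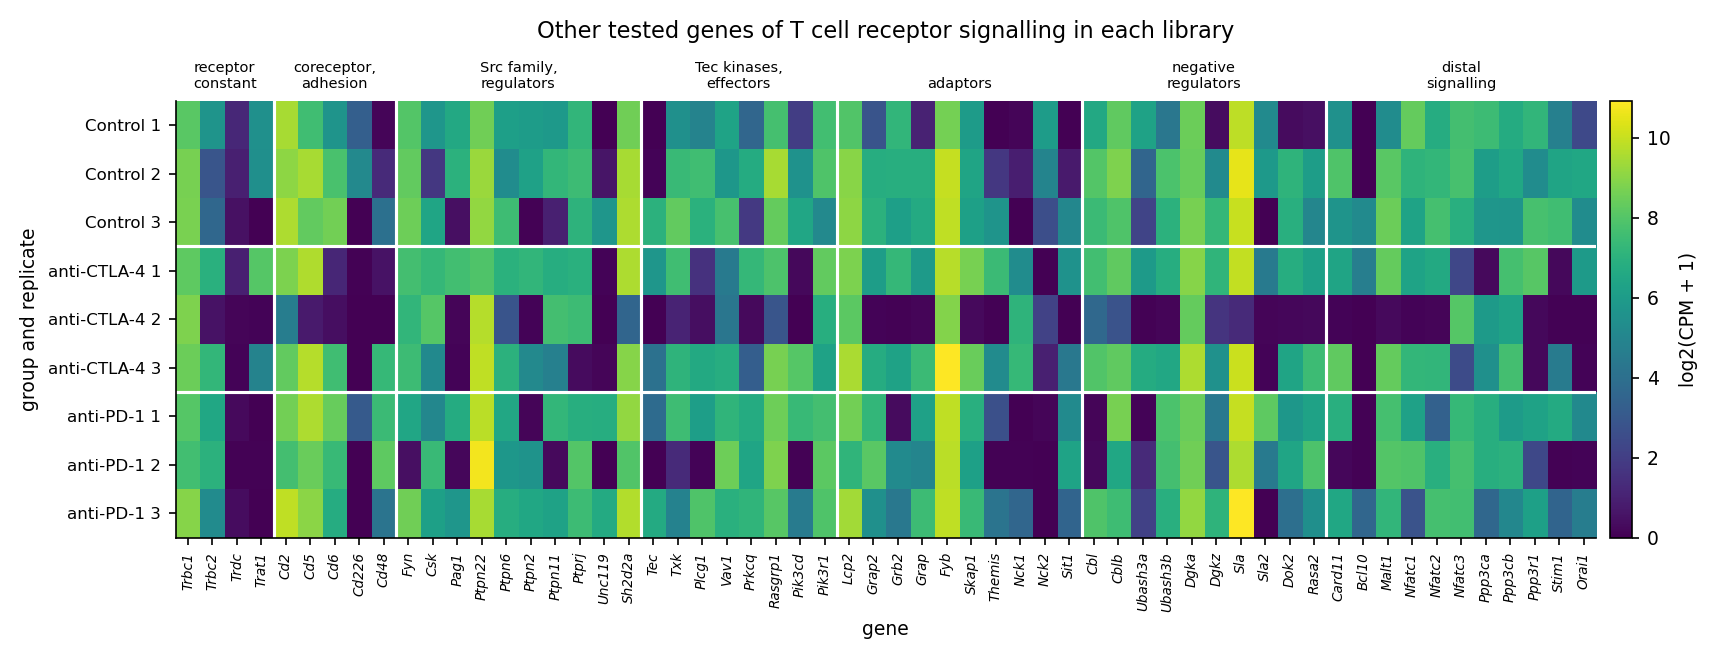
Colour gives log2(CPM + 1) of other tested genes of T cell receptor signalling, all but 1 of the 59 (horizontal, grouped by list), in each of the 9 libraries (vertical). The row of anti-CTLA-4 replicate 2 is dark for most genes shown, while Trbc1, Ptpn22 and Fyb remain bright in it at 454, 844 and 478 CPM.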

How the data were processed

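RNA-seq gene counts were analysed for 9 libraries, 1 per mouse. The authors deposited whole-number read counts per gene symbol; per the submitters' processing notes the tools were TopHat2, HTSeq and DESeq2 and the build GRCm38, without versions. The table is labelled first strand; the annotation behind it is not given in the sources used here. HTSeq summary entries were left out of library sizes; genes took 32.9% to 40.7% of all entries, and alignments that were not unique 24.3% to 31.1%. Positions and exon lengths came from GENCODE release M21. CPM used library totals. The test was edgeR 4.0.16 in R 4.3.3 (robust quasi-likelihood fit, TMM factors, filterByExpr with a minimum count of 10, threshold 0.05). It was also run on simulated data, at the spread of these libraries and at a smaller spread. A recovery was required only at the smaller spread. That requirement does not show how large a change the test would find here. Recovery at the spread of these libraries is not given here. Standard errors were derived from F and are approximate. Intervals and floors of 3 counts cover no amplification error, since reads carry no molecular identifiers.

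The members and the gene lists were chosen with earlier results of these data known. Named genes were all 10 members, the 2 tested genes of each pathway list with the highest mean CPM, any gene past the threshold, and the 3 genes most like each member (mean of at least 50 CPM). A gene that this rule names is not reported here. Alternatives were DESeq2 1.42.0, RLE factors, library totals, no filter, a block for the replicate number, leaving out 1 replicate at a time and, added after seeing the data, both libraries with the fewest genes left out. Marker lists covered macrophages and monocytes and 9 other classes. Over all libraries the sums of these 9 ran from 22.4 to 254 CPM for dendritic cells and 0.0279 to 267 for neutrophils. They ran from 0 to 63.8 CPM for B cells, 0 to 37.9 for NK cells and 0 to 125 for CD8 T cells. For gamma delta T cells they ran from 0.0302 to 1.30 CPM, and for fibroblasts (with Thy1, also a T cell gene) from 195 to 1731. For endothelium they ran from 0.0279 to 184 CPM and for epithelium from 0 to 57.7. Of the dendritic markers, Flt3, Clec9a, Siglech and Batf3 were at 0 in every library. The dendritic sums were led by Ccr7, Zbtb46 or Cst3.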

Additional observations from a re-analysis of the deposited data

How the results depend on the processing

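No member was called under any of the 15 alternatives, and edgeR called none of the 59 other pathway genes under its own alternatives. DESeq2 called 2 of the 59 between anti-CTLA-4 and control (Cd226 and Nck1), 2 between anti-PD-1 and control (Nck2 and Trat1) and 5 between the antibodies (Nck1, Nck2, Trat1, Ubash3a and Unc119); all 6 genes were below 1 CPM in at least 2 libraries. DESeq2 gave no p in 9 tests of members, those of Trac, Cd3d and Cd3g.

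Signs of members' log2 changes moved with the scaling. For anti-CTLA-4 against control, RLE factors gave 0.023 for Cd3e, 1.17 for Cd247, 0.067 for Cd4 and 1.27 for Ptprc, DESeq2 gave 0.018 for Cd3e, 0.98 for Cd247 and 1.12 for Ptprc, and library totals gave -0.055 for Lck. For anti-PD-1 against control, library totals gave -0.10 for Cd247. Between the antibodies, RLE factors gave 0.91 for Cd247 and 0.72 for Ptprc, DESeq2 gave 0.72 and 0.58, and library totals gave -0.081 for Trac and -0.28 for Cd3g. The median of all tested genes itself moved, for anti-CTLA-4 against control from 0.01 to 0.56 with RLE factors, 0.53 with DESeq2 and -0.34 with library totals. With TMM factors, mean CPM with anti-CTLA-4 was 724 for Trac, 649 for Cd3d and 701 for Cd3g. Anti-CTLA-4 replicate 2, divided by its factor of 0.403, then stood at 1570, 1729 and 1612 CPM. In the other libraries of the group the 3 genes lay between 66.4 and 335 CPM. Why that library had so low a factor was not tested.

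With both libraries that had the fewest genes left out, log2 changes against control were, for anti-CTLA-4, -0.19 for Trac, -0.0029 for Cd3d, 0.46 for Cd3e, 0.052 for Ptprc and 0.0057 for Zap70, and, for anti-PD-1, -0.017 for Ptprc. Between the antibodies they were -0.34 for Trac, -0.42 for Cd3d, 0.28 for Cd3e, -0.55 for Cd3g and 0.069 for Ptprc. Leaving out 1 replicate at a time gave ranges that crossed 0 for anti-CTLA-4 against control in Trac (-0.18 to 1.33), Cd3e (-0.64 to 0.46), Ptprc (-0.42 to 0.053), Lck (-0.074 to 1.07), Zap70 (-1.76 to 0.0070) and Lat (-8.88 to 1.3). For anti-PD-1 against control they crossed it in Cd3e (-0.045 to 0.68), Cd247 (-0.18 to 0.35) and Zap70 (-0.45 to 0.97), and between the antibodies in Trac (-0.53 to 0.98), Cd3d (-0.53 to 2.39), Cd3e (-0.85 to 0.25), Cd3g (-0.93 to 0.91) and Lat (-6.36 to 8.46). Counted for each gene, comparison and left-out replicate, the sign turned 17 times, 8 of them without anti-CTLA-4 replicate 2.

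Same-numbered libraries of different groups had correlations of deviations from -0.03 to 0.02, and other pairs from -0.02 to 0.03. Of the libraries, 0 correlated best with their own number in both other groups. No pairing by number was seen, but the check cannot exclude it. Between libraries of the same group, 59.0% to 66.1% of tested genes were over 2-fold apart. With the replicate number as a block, edgeR called 0 members, the change of Zap70 between anti-PD-1 and control was -3.18, and calls over all genes were 10, 1, 12 and 17 in the order anti-CTLA-4 against control, anti-PD-1 against control, between the antibodies, and over the 3 groups.

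In that order, all tested genes gave 29, 6, 65 and 120 calls in the reported fit, 0, 0, 0 and 19 with RLE factors, 0, 0, 6 and 12 with library totals, 811, 750, 956 and 210 with DESeq2, 64, 2, 98 and 160 without a filter, and 1, 2, 16 and 6 without both libraries of fewest genes. With single replicates left out they ranged from 0 to 79, 0 to 5, 6 to 145 and 3 to 201, and were 0, 1, 6 and 3 without anti-CTLA-4 replicate 2. Depth was at least 25530333 gene counts, but reads of amplified RNA do not give the number of molecules behind a value, and that limit was not tested.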
